A study of Rattus norvegicus with 138 samples.

Results

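The rostral ventrolateral medulla (RVLM) of 10-wk-old female spontaneously hypertensive rats (SHRs, SHR/NHsd) was compared with that of age-matched Wistar-Kyoto (WKY, WKY/NHsd) rats, gene by gene. The 9 RVLM libraries of that age, from 5 SHRs and 4 WKY rats, were picked by strain, age and region from the 46 RVLM libraries of the series, and all genes were kept. The series also holds the nucleus tractus solitarii (NTS) and caudal ventrolateral medulla (CVLM) of the same rats, and RVLM of other rats at 8, 12, 16 and 24 wk. Each library was made from bilateral micropunches of 1 rat, and no drug treatment is named for either strain. The study places 10 wk in the period in which SHRs become hypertensive, and gives blood pressure recordings for 12 and 24 wk. SHR and WKY are separate inbred strains, so every difference below is one between strains, and any gene that differs between their genomes is included in it.

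The RVLM holds the presympathetic neurons whose axons drive the preganglionic neurons of the spinal cord, and it thereby sets sympathetic tone and arterial pressure. A large share of these cells are C1 neurons, which make adrenaline from tyrosine through tyrosine hydroxylase (Th), dopamine beta-hydroxylase (Dbh) and phenylethanolamine N-methyltransferase (Pnmt), and which also release glutamate. They are held in check by GABA neurons of the CVLM, which receive baroreceptor signals by way of the NTS, and they are modulated by angiotensin, neuropeptides and glia.

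The 9 libraries held 14020844 to 15926486 counts each, and the median rank correlation of a library with the other 8 was 0.9723 to 0.9828, so that none stood apart. Levels are given as CPM, the counts of a gene scaled to a library of standard size, after normalization by trimmed mean of M values. The punches carried markers of cholinergic neurons, with Chat at 154 to 345 CPM and the choline transporter Slc5a7 at 620 to 1050 CPM. The medullary gene Hoxc4 was low but counted in every library, at 0.349 to 2.11 CPM. Genes of regions that the punch should lack were low but not all absent. The cerebellar genes Cbln3 and Gabra6 reached at most 0.128 and 0.427 CPM, the hypothalamic gene Pmch was at 0.411 to 1.42 CPM, and the forebrain gene Neurod6 was counted in every library, at 1.46 to 3.54 CPM in SHRs and 0.833 to 1.53 CPM in WKY rats. Of the other medullary Hox genes, Hoxb5 was at 0.137 to 0.767 CPM, Hoxa5 was at 0 in 5 libraries and Hoxb8 at 0 in 7. Among the markers of C1 neurons, Th was at 12.5 to 84.2 CPM, Dbh at 2.81 to 25.7 CPM and Pnmt at 2.15 to 24.6 CPM. On a common scale for the 3 regions, Pnmt at 10 wk was at 2.92 to 25.5 CPM in the RVLM of SHRs and at 23.3 to 39.2 CPM in their CVLM, and at 2.24 to 8.92 CPM and 12.0 to 54.2 CPM in WKY rats. In WKY rats the adrenaline-forming enzyme was thus lower in every RVLM library than in any CVLM library. In SHRs only the top of the RVLM range met the bottom of the CVLM range. In tissue punches, fewer cells of a type and less RNA per cell cannot be told apart.

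Of 13411 genes tested, 155 differed by a factor of 2 or more between the strains (log2 fold change of 1 or beyond, either way) with an adjusted p no larger than 0.01, which is 1.16% of those tested. In SHRs 80 of these were higher (0.597%) and 75 lower (0.559%). Their median log2 fold change was 1.95 for the rises and -1.65 for the falls, whereas the median over all tested genes was -0.01, and 66 of the 155 exceeded an absolute log2 fold change of 2. In 153 of the 155, all 5 SHRs lay on the same side of all 4 WKY rats, where 380 of all tested genes (2.83%) lay wholly higher and 422 (3.15%) wholly lower. The median SE of a gene's fold change was 0.22 on the log2 scale. At an adjusted p under 0.05 with no limit on size, 309 genes (2.3%) passed, 151 higher (1.13%) and 158 lower (1.18%), and this wider criterion is used for the gene lists below. A gene is said to have risen or fallen where it met that criterion. The counts of each list below are to be set against these shares. At an unadjusted p under 0.05 the shares of all tested genes were 4.07% higher and 3.72% lower.

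**Figure D1:**
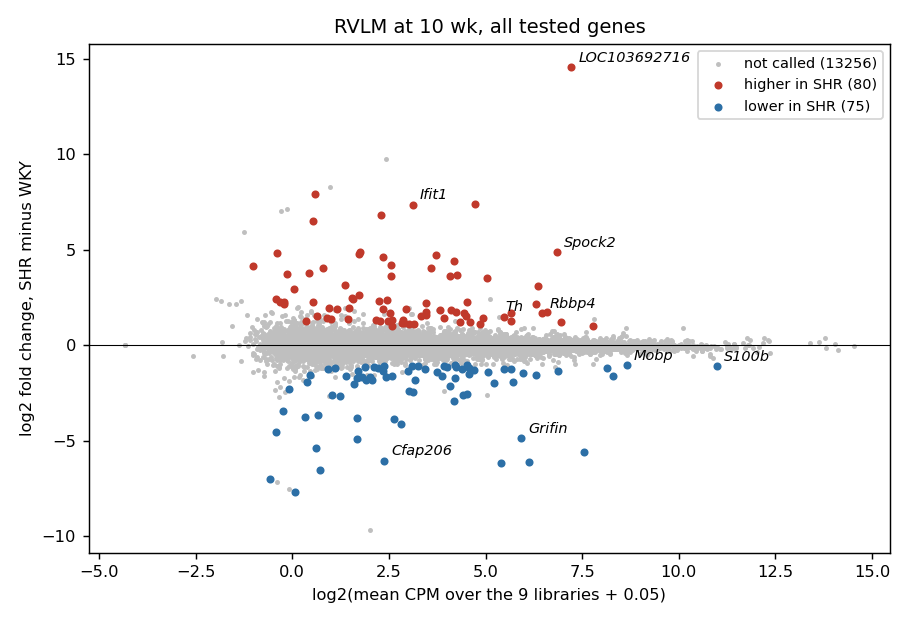
Log2 fold change (SHR minus WKY) of each of the 13411 tested genes in the RVLM at 10 wk against its mean level, log2(CPM + 0.05), over the 9 libraries. The 80 called genes that were higher in SHRs (red) and the 75 that were lower (blue) lie at low and at high levels alike, most genes lie close to 0, and Th lies above 0 without being called.

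The largest rises were in genes that WKY rats barely expressed. Ifit1, an interferon-induced protein that binds viral RNA lacking the cap methylation of the cell's own, was at 22.2, 14.1, 9.80, 10.9 and 20.2 CPM in the SHRs and at 0.0639, 0.0695, 0.0641 and 0.137 CPM in the WKY rats. Its level was thus 185-fold higher in SHRs (log2 fold change 7.36 ± 0.60 SE, adjusted p = 3.99e-12), and in WKY rats it rested on 1 or 2 counts per library. Spock2, a proteoglycan of the brain's extracellular matrix, was at 203, 189, 211, 191 and 214 CPM in SHRs and at 5.30, 7.99, 8.27 and 5.68 CPM in WKY rats. The rise was 29.6-fold, and no SHR came near any WKY rat. Ephx2 encodes soluble epoxide hydrolase, which breaks down the vasodilator epoxides of arachidonic acid. Its CPM were 32.1, 22.9, 34.6, 27.8 and 24.6 in SHRs and 1.92, 2.57, 2.69 and 1.92 in WKY rats, 12.5-fold higher in SHRs (log2 fold change 3.63 ± 0.20, adjusted p = 1.66e-17).

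Other large rises included Lilrb3a, the gene of the inhibitory receptor PirB that binds MHC class I proteins, at 5.52 to 13.0 CPM in SHRs and at most 0.192 CPM in WKY rats (log2 fold change 6.83 ± 0.52). Apoa5, an apolipoprotein better known from liver, rose by 4.62 ± 0.37 and the membrane protein gene Tmem94 by 4.43 ± 0.39 on the log2 scale. The peroxisomal membrane gene Pxmp4 (3.70 ± 0.22), the desmosomal gene Pkp1 (3.65 ± 0.32) and Tomm40l, a relative of the channel of the mitochondrial outer membrane (3.501 ± 0.20), followed. Ptprn2, a protein of dense-core secretory vesicles, was at 118, 157, 130.2, 133 and 135 CPM in SHRs and at 10.1, 12.9, 29.7 and 10.1 CPM in WKY rats. WKY rat 3 was the highest of its group, and the groups did not overlap (log2 fold change 3.10 ± 0.36).

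Among the falls, Cfap206, a protein of motile cilia, was at 0.142, 0.240, 0.0705, 0.139 and 0.213 CPM in SHRs and at 10.9, 12.3, 12.2 and 10.3 CPM in WKY rats, 70.9-fold lower in SHRs. Grifin, a galectin-related protein first found in the lens, was at 6.30, 4.74, 2.61, 5.44 and 3.27 CPM against 116, 129.7, 149 and 129.7 CPM, 29.3-fold lower. Both genes separated the strains completely. Pik3r1 encodes the p85 alpha regulatory subunit of phosphoinositide 3-kinase, through which insulin and growth factors signal. It was at 26.8, 23.3, 23.6, 23.8 and 20.1 CPM in SHRs and at 91.3, 84.2, 88.9 and 87.1 CPM in WKY rats, 3.74-fold lower (log2 fold change -1.90 ± 0.13, adjusted p = 6.24e-15).

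The other large falls were in Tstd1 (log2 fold change -4.14 ± 0.42), Haghl, a relative of the glyoxalase enzymes (-2.58 ± 0.21), Tmem106c (-2.54 ± 0.16), Serhl2, a serine hydrolase-like gene (-2.42 ± 0.26), Pld5, a member of the phospholipase D family (-2.40 ± 0.39), and Aif1l (-2.15 ± 0.18). Epb41l1, which links the neuronal membrane to spectrin and actin, fell by 1.97 ± 0.24 on the log2 scale. It varied more than the rest, since WKY rat 2 was at 105 CPM and the other WKY rats at 41.8 to 57.3 CPM, all above the SHR range of 10.9 to 26.4 CPM. None of these 20 genes, the largest changes among those with a gene symbol and a mean of at least 50 counts, lost its adjusted p under 0.05 when any 1 of the 9 rats was left out.

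**Figure D2:**
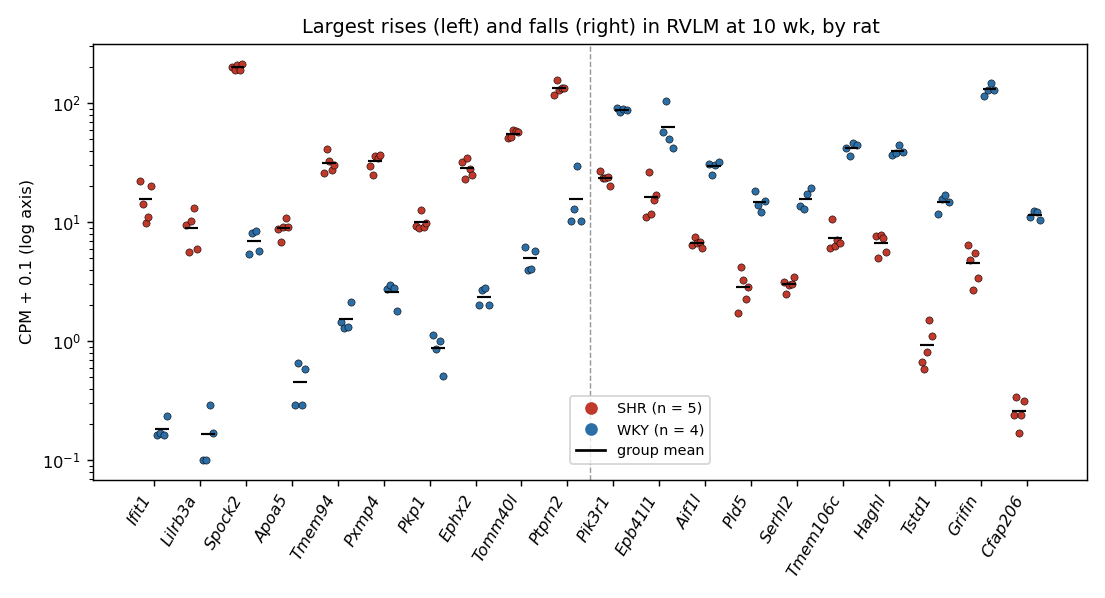
CPM + 0.1 on a log axis of the 10 largest rises (left of the dashed line) and the 10 largest falls (right) among called genes with a symbol and a mean of at least 50 counts, with 1 point per rat and a line at the group mean. The red SHR points (n = 5) and the blue WKY points (n = 4) do not overlap for any of the 20 genes.

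Called genes without an informative symbol were similar in size. AABR07064061.1 was at 39.0 to 52.4 CPM in SHRs and at most 0.417 CPM in WKY rats, 179-fold higher. RGD1563294 was at 1.67 to 2.83 CPM in SHRs against 128 to 179 CPM in WKY rats, 68.7-fold lower, and LOC100909441 was at 0, 0, 0, 3.07 and 3.56 CPM against 84.0 to 105 CPM. LOC103692716 had no count in any WKY rat and 2875 to 5868 counts in each SHR, which with a floor of 3 counts over the WKY group is at least 5300-fold higher in SHRs (adjusted p = 3.76e-05 in edgeR, and 0.116 in limma voom). Of the other called genes with a group at 0, LOC100910934 was at least 52.8-fold higher and AABR07011698.1 at least 54.8-fold lower on the same floor.

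Genes of antigen presentation were the largest group of list members that changed. Major histocompatibility complex (MHC) class I proteins show peptides on the cell surface to T cells, after the immunoproteasome has cut the peptides, the Tap transporter has moved them and tapasin has loaded them. Of 23 tested MHC genes, 5 rose and 1 fell, against 1.13% and 1.18% of all tested genes, and the other 17 did not pass, with a median log2 fold change of 0.10 over the list. RT1-A1, a class I gene, was at 127, 109, 132, 112 and 126 CPM in SHRs and at 26.8, 30.0, 24.6 and 28.9 CPM in WKY rats (log2 fold change 2.14 ± 0.12, adjusted p = 3.37e-17). Its neighbour RT1-A2 went the other way, with 2.34, 3.90, 2.40, 2.02 and 4.27 CPM in SHRs and 8.31, 7.44, 6.73 and 7.94 CPM in WKY rats (log2 fold change -1.34 ± 0.20, adjusted p = 6.07e-06). Neither gene overlapped between the strains, and since the RT1 class I genes are near-identical copies that differ between strains, the division of reads among them is uncertain.

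Of the genes that prepare peptides for class I, Tapbp, Psmb8 and Tap2 rose, while the transporter subunit Tap1 (0.22 ± 0.25) and the immunoproteasome subunit Psmb9 (0.17 ± 0.29) did not pass. Tapbp, which encodes tapasin, was at 36.4, 40.4, 38.6, 34.9 and 40.0 CPM in SHRs and at 19.0, 20.2, 17.05 and 15.1 CPM in WKY rats (2.14-fold, adjusted p = 2.88e-05). Psmb8, an immunoproteasome subunit, was at 11.3, 7.75, 9.03, 8.72 and 9.67 CPM against 4.54, 4.10, 5.70 and 4.93 CPM (1.93-fold, adjusted p = 0.00115). Tap2, a subunit of the peptide transporter, was at 9.06, 8.17, 12.1, 4.67 and 7.54 CPM against 3.13, 2.64, 1.67 and 2.81 CPM (3.24-fold, adjusted p = 0.00592). All 3 genes had every SHR above every WKY rat, though the call of Tap2 was lost without WKY rat 3 (adjusted p = 0.0514). The class II chain RT1-Db1 was low in both strains, at 1.201 to 4.53 CPM in SHRs and 0 to 0.278 CPM in WKY rats, with SHR rat 4 the highest (log2 fold change 3.80 ± 0.60).

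In the complement list 1 of 25 tested genes rose and none fell by edgeR (2 and 1 had an unadjusted p under 0.05). It was 1 of the gene entries named Cfb, factor B of the alternative pathway (ENSRNOG00000000419), at 4.41 to 7.67 CPM in SHRs and at 0 in 3 WKY rats and 0.753 CPM in WKY rat 4 (log2 fold change 4.90 ± 0.82, and 9.03 without WKY rat 4). The other entry named Cfb (ENSRNOG00000051158) was at 10.7 to 16.8 CPM in SHRs and 10.3 to 15.3 CPM in WKY rats, with a log2 fold change of 0.03 ± 0.52, so the reads of factor B were divided between 2 entries and only 1 of them differed. Of 30 interferon-induced genes 2 rose, Ifit1 (above) and Ifi44, against 1.13% of all tested genes. The median of the list was a log2 fold change of 0.14. Ifi44, at 19.3, 11.4, 13.2, 15.8 and 15.1 CPM in SHRs and 9.20, 7.30, 5.19 and 9.85 CPM in WKY rats, rose 1.90-fold (adjusted p = 0.00691, and 0.0791 without WKY rat 3).

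**Figure D3:**
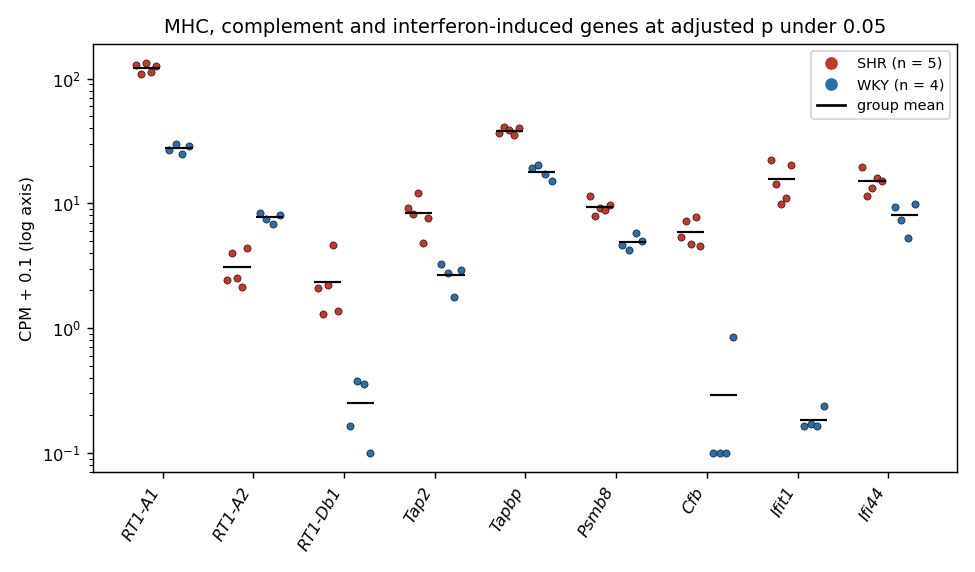
CPM + 0.1 on a log axis of the 9 MHC, complement and interferon-induced genes with an adjusted p under 0.05, with 1 point per rat (SHR red, n = 5, WKY blue, n = 4) and a line at the group mean. RT1-A2 is the one gene of the 9 that was lower in SHRs, and the Cfb shown is the entry with 4.41 to 7.67 CPM in SHRs.

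The promoters of 4 of these genes are shown because each carries the core of the interferon-stimulated response element, the DNA motif that interferon regulatory factors bind. The motif was searched as GAAA, any 2 bases and GAAA again, on both strands in the window from 250 bases before to 50 bases after each gene's start (RefSeq, build GRCr8), and matches are in capitals, as the reverse complement where they lie on the other strand. It is in 3.92% of the 33465 promoters of the table, in 2.81% of the tested genes with 1 promoter and in 5.19% of the 77 called ones. The share is 33.3% in the 21 tested MHC genes with 1 promoter and 59.1% in the 22 interferon-induced genes, lists in which most genes did not pass. Ifi44 lies at chr2:243303791-243304090, Psmb8 at chr20:4656982-4657281, Tap2 at chr20:4652247-4652546 and Tapbp at chr20:4967828-4968127, all on the minus strand. The Ifi44 promoter holds 2 matches, that of Tapbp 2 that overlap each other, and the others 1 each. The RT1-A1, RT1-A2 and RT1-Db1 promoters hold no match, and Ifit1 was not matched in the table.
Ifi44: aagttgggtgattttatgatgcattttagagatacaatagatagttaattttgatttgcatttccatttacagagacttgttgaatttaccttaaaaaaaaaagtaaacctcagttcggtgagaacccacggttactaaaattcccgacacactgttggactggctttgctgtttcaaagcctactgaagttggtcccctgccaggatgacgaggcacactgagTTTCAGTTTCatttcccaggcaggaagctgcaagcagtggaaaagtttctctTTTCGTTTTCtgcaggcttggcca
Psmb8: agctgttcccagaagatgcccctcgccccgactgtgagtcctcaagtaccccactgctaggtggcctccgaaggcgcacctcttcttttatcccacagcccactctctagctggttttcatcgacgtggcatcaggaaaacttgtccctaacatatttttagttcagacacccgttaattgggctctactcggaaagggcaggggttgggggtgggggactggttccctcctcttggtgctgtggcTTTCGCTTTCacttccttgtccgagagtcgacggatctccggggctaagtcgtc
Tap2: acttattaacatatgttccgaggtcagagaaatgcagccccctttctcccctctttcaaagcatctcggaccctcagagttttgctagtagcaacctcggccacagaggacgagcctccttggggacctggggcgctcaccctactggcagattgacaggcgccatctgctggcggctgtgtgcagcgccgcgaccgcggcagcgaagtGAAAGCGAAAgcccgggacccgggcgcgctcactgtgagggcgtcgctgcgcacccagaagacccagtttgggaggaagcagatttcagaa
Tapbp: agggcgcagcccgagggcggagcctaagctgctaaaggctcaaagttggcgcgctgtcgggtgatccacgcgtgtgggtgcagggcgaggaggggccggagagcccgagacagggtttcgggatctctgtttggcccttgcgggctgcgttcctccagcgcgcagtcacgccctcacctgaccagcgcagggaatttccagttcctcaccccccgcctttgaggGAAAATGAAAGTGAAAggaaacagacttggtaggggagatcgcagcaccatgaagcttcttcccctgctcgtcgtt

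Among glial genes, single markers fell while the rest of their lists did not pass. S100b, the calcium-binding protein of astrocytes, was at 1366, 1202, 1310.5, 1441 and 1396 CPM in SHRs and at 2775, 2597, 3177.5 and 2861 CPM in WKY rats, 2.12-fold lower (adjusted p = 5.1e-07). It was the only one of 10 tested astrocyte markers to pass, and the median of that list was -0.01 on the log2 scale. Mobp, a structural protein of compact central myelin, was at 276, 279.9, 262, 249.9 and 299 CPM in SHRs and at 583, 587, 467 and 604 CPM in WKY rats, 2.05-fold lower (adjusted p = 9.59e-07). The other 11 of 12 oligodendrocyte markers did not pass, and their summed level with Mobp was 40530 to 47920 CPM in SHRs and 39490 to 48150 CPM in WKY rats. For the astrocyte list, whose sum includes S100b, it was 6150 to 6748 CPM and 7382 to 8639 CPM. No gene of the 11 microglia markers, 11 endothelial and mural markers, 12 pan-neuronal genes or 7 markers of choroid plexus, ependyma and meninges passed in edgeR (unadjusted, 3 were higher and 2 lower). Of 12 genes of other brain regions 1 was high enough to be tested, Neurod6, which was higher in SHRs at an unadjusted p of 0.00355 and did not pass (1.14 ± 0.37, adjusted p = 0.119). The part of neighbouring tissue in other differences was not tested.

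Of 27 collagen and matrix genes 2 fell and none rose (of all tested genes, 1.18% and 1.13%). Fibronectin (Fn1) was at 11.04, 11.2, 9.31, 10.1 and 10.2 CPM in SHRs and at 25.6, 28.5, 21.3 and 17.4 CPM in WKY rats, 2.23-fold lower (adjusted p = 3.21e-05). Col16a1, a collagen that associates with fibrils, was 1.87-fold lower (adjusted p = 0.0297), a call that was lost in 6 of the 9 fits that left out 1 rat, with an adjusted p of up to 0.195 without WKY rat 2.

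Of 7 tested genes of hemoglobins and red cells 3 fell, all alpha globins, and none rose (of all tested genes, 1.18% and 1.13%). At an unadjusted p under 0.05 there were 5 lower and 1 higher (of all tested genes, 3.72% and 4.07%). The higher one was neuroglobin (Ngb), a globin of neurons (0.32 ± 0.14, adjusted p = 0.472). Hba-a1 was at 90.2, 57.0, 57.7, 76.5 and 80.4 CPM in SHRs and at 105, 132, 222 and 173 CPM in WKY rats (log2 fold change -1.13 ± 0.31, adjusted p = 0.0354), and Hba-a2 was at 23.3 to 35.0 CPM against 40.3 to 92.0 CPM (-1.21 ± 0.32, adjusted p = 0.0241). The call of Hba-a1 was lost in 6 of the 9 fits that left out 1 rat (SHR rats 2 to 5 and WKY rats 3 and 4), in limma voom and without a filter on low counts, and that of Hba-a2 in 4 of 9 (SHR rats 2 and 3, WKY rats 3 and 4). Both had their largest adjusted p without WKY rat 3, at 0.26 and 0.183. The beta globin entry Hbb had the same direction without passing (-0.98 ± 0.30, adjusted p = 0.084). Hba-a3 stood apart, with no count in any SHR and 15 to 31 counts in each WKY rat, at least 34.5-fold lower in SHRs on a floor of 3 counts over the group. The alpha globin genes are near-identical copies, so the division of reads among them is uncertain. The summed level of the list was 225.5 to 296 CPM in SHRs and 319.6 to 669.9 CPM in WKY rats, and the part of blood left in the punches in other differences was not tested.

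The genes of catecholamine synthesis, storage, uptake and breakdown bear most directly on the C1 neurons. None of the 15 tested members passed in edgeR, 4 were higher and 1 lower at an unadjusted p under 0.05 (of all tested genes, 4.07% and 3.72%), and the list's median log2 fold change was 0.10. Th, the rate-limiting enzyme, was at 44.5, 84.2, 48.6, 69.0 and 36.8 CPM in SHRs and at 19.5, 12.5, 25.9 and 22.3 CPM in WKY rats. Every SHR was above every WKY rat, 2.82-fold in the mean (log2 fold change 1.498 ± 0.53, adjusted p = 0.202). In a fit of the 9 libraries of 10 wk alone, the same fold change had an adjusted p of 0.0229, and over all other alternatives it ran from 0.0953 to 0.582.

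Dbh, which turns dopamine into noradrenaline, was at 10.97, 9.97, 7.90, 25.7 and 5.33 CPM in SHRs and 3.20, 3.13, 6.02 and 2.81 CPM in WKY rats (log2 fold change 1.66 ± 0.66, adjusted p = 0.341). Slc6a2, the noradrenaline transporter, was at 6.37, 1.56, 2.47, 13.4 and 1.42 CPM against 1.66, 2.15, 1.67 and 0.958 CPM (1.64 ± 0.79, adjusted p = 0.606). Both had their highest value in SHR rat 4, and the groups overlapped. Pnmt, the enzyme that makes adrenaline, was at 11.1, 24.6, 17.2, 2.79 and 18.2 CPM against 7.73, 2.15, 7.69 and 8.55 CPM (1.18 ± 0.67, adjusted p = 0.778). Here SHR rat 4 was the lowest of the SHRs and WKY rat 2 the lowest of the WKY rats. The vesicular transporter Slc18a2 was again highest in SHR rat 4, at 40.4 CPM against 15.6 to 23.4 CPM in the other SHRs and 10.9 to 19.98 CPM in WKY rats (0.78 ± 0.38, adjusted p = 0.605). SHR rat 4 therefore carried more of the noradrenaline genes and less of the adrenaline gene than its group. Without it, the log2 fold change was 1.42 for Th, 1.17 for Dbh, 1.44 for Pnmt, 0.87 for Slc6a2 and 0.53 for Slc18a2.

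Most of the remaining members moved little. The aromatic amino acid decarboxylase Ddc (0.03 ± 0.17), the pteridine enzymes Gch1 (0.06 ± 0.36), Pts (0.11 ± 0.18) and Spr (-0.10 ± 0.20), the regulator Gchfr (-0.03 ± 0.29), and the breakdown enzymes Maob (0.03 ± 0.17) and Maoa (0.27 ± 0.14) had log2 fold changes within 2 standard errors of 0, as did Cyb561 (0.10 ± 0.16). Qdpr, which regenerates the cofactor of Th, was lower in all 5 SHRs without passing (-0.31 ± 0.12, adjusted p = 0.289). None of 4 tested genes of C1 and noradrenergic neuron identity passed in edgeR (unadjusted, 1 was higher and none lower). Among them, the vesicular glutamate transporter Slc17a6 was at 80.5 CPM in SHR rat 4 and at 115 to 209 CPM in the other SHRs, against 60.1 to 136 CPM in WKY rats (0.57 ± 0.27, adjusted p = 0.595). Galanin (Gal), a peptide of many noradrenergic neurons, was at 5.09 to 9.31 CPM in SHRs and 1.79 to 3.59 CPM in WKY rats, without overlap and without passing (1.63 ± 0.76, adjusted p = 0.562).

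**Figure D4:**
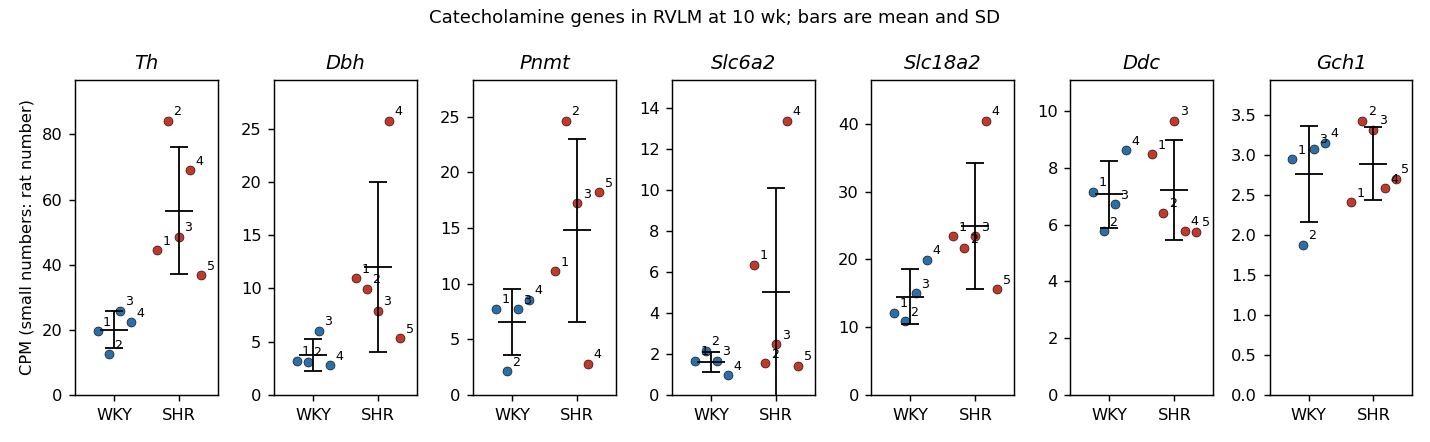
CPM of 7 catecholamine genes in each of the 4 WKY rats (blue) and 5 SHRs (red) in the RVLM at 10 wk, with the rat's number beside its point and the mean and SD as bars. Th does not overlap between the strains, SHR rat 4 has the highest Dbh, Slc6a2 and Slc18a2 and the lowest SHR value of Pnmt, and Ddc and Gch1 overlap.

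The promoter of Th is shown because it holds the palindromic cyclic AMP response element TGACGTCA, through which neuronal activity is known to raise Th transcription. The capitals mark it at base 182 of the window at chr1:207508169-207508468 (GRCr8, minus strand, RefSeq), of which the last 50 lie after the start. It is in 1.83% of all promoters of the table and in 3.24% of those of tested genes.
Th: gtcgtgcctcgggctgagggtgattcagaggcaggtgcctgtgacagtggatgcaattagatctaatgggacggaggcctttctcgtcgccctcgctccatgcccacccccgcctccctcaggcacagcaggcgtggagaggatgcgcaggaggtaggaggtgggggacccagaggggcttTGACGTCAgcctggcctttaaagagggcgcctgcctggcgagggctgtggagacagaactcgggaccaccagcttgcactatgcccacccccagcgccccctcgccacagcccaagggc

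For other transmitters, the counts of passing genes were low. Among genes of GABA and glycine synthesis, transport and breakdown, 1 of 10 fell, Abat, the GABA transaminase that degrades GABA. Its CPM were 61.6, 60.9, 69.7, 57.7 and 69.7 in SHRs and 90.1, 99.3, 116 and 104 in WKY rats, 1.6-fold lower (adjusted p = 0.000577), and the groups did not overlap. In edgeR none of 18 GABA and glycine receptor genes passed (unadjusted, 2 were higher and none lower), nor did any of 27 glutamate receptor genes (3 and 1), 9 cholinergic genes (1 and 0), 8 acetylcholine receptor genes (1 and 0), 6 adrenergic receptor genes (0 and 0), 4 serotonergic genes (1 and 0) or 10 renin-angiotensin genes (0 and 0). Among genes the study discusses, the glycine receptor subunit Glra2 was at 6.94 to 13.6 CPM in SHRs and 2.85 to 9.92 CPM in WKY rats (0.85 ± 0.33, adjusted p = 0.325, and 0.0411 without WKY rat 4). The nicotinic subunits Chrna3 (0.22 ± 0.22) and Chrna4 (-0.62 ± 0.33) and the AMPA receptor partner Cacng5 (-1.11 ± 0.41) did not pass.

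Of 41 potassium and HCN channel genes in the list, 1 rose and 1 fell (of all tested genes, 1.13% and 1.18%). A further accessory subunit that the list does not hold, Kcne2, was also called, at 0.540 to 2.40 CPM in SHRs and 4.58 to 5.70 CPM in WKY rats (log2 fold change -1.72 ± 0.31, adjusted p = 0.000219). Kcnip3, also known as calsenilin or DREAM, is a calcium sensor that binds Kv4 channels, and it was at 13.9, 20.8, 16.9, 19.8 and 23.7 CPM in SHRs and at 53.7, 65.5, 40.4 and 43.4 CPM in WKY rats, 2.67-fold lower (adjusted p = 7.88e-08). Its relative Kcnip2 had higher values in SHRs, at 6.44 to 19.4 CPM against 0.139 to 7.22 CPM, with overlap (1.93 ± 0.77, adjusted p = 0.348). Kcnt2, a sodium-activated potassium channel, was at 3.61, 4.92, 4.30, 2.93 and 3.20 CPM against 1.73, 0.973, 1.28 and 1.64 CPM (2.70-fold, adjusted p = 0.0241). This call was lost without SHR rat 2, SHR rat 3, WKY rat 2 or WKY rat 3, with an adjusted p of up to 0.129. Kcne5, an accessory subunit, was at 6.13 to 7.54 CPM against 2.81 to 4.86 CPM without overlap (0.83 ± 0.25, adjusted p = 0.0616), and it passed in 6 of 18 alternatives. No sodium or calcium channel subunit of 24 passed in edgeR (unadjusted, 3 were higher and 2 lower), among them Scn9a (0.95 ± 0.38, adjusted p = 0.364).

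Among 28 neuropeptide receptor genes 1 rose and 1 fell (of all tested genes, 1.13% and 1.18%). At an unadjusted p under 0.05 there were 9 higher and 1 lower (of all tested genes, 4.07% and 3.72%). Crhr1, the main receptor of corticotropin-releasing hormone, was at 7.15, 5.88, 6.98, 4.53 and 5.62 CPM in SHRs and at 2.81, 2.85, 2.24 and 1.85 CPM in WKY rats, 2.47-fold higher (log2 fold change 1.303 ± 0.28, adjusted p = 0.00209). It separated the strains and kept an adjusted p of at most 0.0199 when any 1 rat was left out. Ramp1 forms the receptor of calcitonin gene-related peptide together with Calcrl. It was at 45.0, 40.0, 42.7, 42.8 and 48.4 CPM in SHRs and at 61.2, 65.0, 78.0 and 78.4 CPM in WKY rats, 1.61-fold lower (adjusted p = 0.0363). The call was lost in 7 of 9 fits without 1 rat, with an adjusted p of up to 0.15 without WKY rat 3. Its partner Calcrl was at 29.3 to 41.7 CPM against 16.6 to 24.9 CPM (0.70 ± 0.27, adjusted p = 0.289), and the ligand's gene Calca at 361 to 501 CPM against 240.2 to 314 CPM (0.62 ± 0.23, adjusted p = 0.27, and 0.00394 in the 9 libraries of 10 wk alone). Calcrl and Calca thus had higher values in SHRs and Ramp1 lower ones, and only Ramp1 passed.

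None of 27 neuropeptide genes passed in edgeR (unadjusted, 3 were higher and 2 lower). Of the peptides and receptors named by the study, Npy2r was at 0.697 to 2.35 CPM in SHRs and 0.417 to 0.616 CPM in WKY rats without overlap (1.41 ± 0.51, adjusted p = 0.219). Tacr1, the substance P receptor, had a log2 fold change of 0.67 ± 0.28 and its ligand's gene Tac1 one of -0.27 ± 0.33. Crh (0.92 ± 0.59), Trh (-0.996 ± 0.99) and Hcrtr1 (-0.03 ± 0.35) did not pass either, and Trh rested on WKY rat 4 at 7.53 CPM where the other WKY rats were at 0 to 0.347 CPM. Nlrx1 (0.39 ± 0.24), Igfbp5 (0.55 ± 0.30), Gprin3 (0.62 ± 0.32) and Sdk2 (0.51 ± 0.28) had higher means in SHRs without passing.

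In the list of nitric oxide and oxidative stress genes 2 of 19 rose, Ephx2 (above) and Gucy1a1, and 1 fell, Txnip, whereas DESeq2 and limma voom each gave 4 that rose. Gucy1a1, a subunit of the guanylyl cyclase that nitric oxide activates, was at 34.8, 50.1, 51.9, 35.7 and 37.8 CPM in SHRs and at 28.0, 19.6, 25.2 and 27.5 CPM in WKY rats, 1.68-fold higher (adjusted p = 0.03, and up to 0.191 without WKY rat 2). It also lost its call without SHR rat 2, SHR rat 3 or WKY rat 3. Txnip, the inhibitor of thioredoxin that glucose induces, was at 20.5, 13.1, 15.6, 15.6 and 14.9 CPM against 32.1, 32.9, 34.9 and 28.3 CPM, 2.01-fold lower (adjusted p = 1.99e-05). In edgeR no gene passed among 11 immediate early genes (unadjusted, 1 higher and 0 lower), 14 glucocorticoid response genes (1 and 1), 15 clock genes (0 and 1), 25 genes of synaptic vesicle release (2 and 1) and 34 complex I subunits (0 and 0).

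To ask which strain differences belonged to 10 wk, the same contrast was read in the RVLM of other rats at the other 4 ages. Those libraries held a median of 9537670 counts, against 14944389 at 10 wk. Of the 155 called genes, 152 had the same sign at all 4 other ages and 81 (52.3%) were called at all of them, while 22 (14.2%) were called at no other age. Of all tested genes, 1.64%, 0.962%, 0.91% and 0.969% were called at 8, 12, 16 and 24 wk. Being called at only 1 age does not show a difference between ages, and the test of that difference, the strain effect at 10 wk against its mean at the other ages, passed for 2 of 13411 genes at an adjusted p under 0.05 (0.0149%), with 210 (1.57%) at an unadjusted p under 0.05. Crhr1, for example, was called at 10 wk alone, and its log2 fold change was 0.84, 0.65, 0.80 and 1.24 at 8, 12, 16 and 24 wk. For Th these values were 0.54, 0.54, 0.35 and -0.06, all below the 1.498 at 10 wk, and the difference had an unadjusted p of 0.0541 and an adjusted p of 1.

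Rbbp4, a histone-binding subunit of several chromatin complexes, was 1 of the 2 genes. At 10 wk it was at 133, 119, 128, 125 and 135 CPM in SHRs and at 37.2, 35.7, 41.6 and 43.6 CPM in WKY rats (log2 fold change 1.69 ± 0.10). At 8, 12, 16 and 24 wk the log2 fold changes were 1.39, 1.18, 0.89 and 0.65, and the effect at 10 wk exceeded their mean by 0.67 ± 0.11 (adjusted p = 0.00248). The levels in SHRs had group medians between 121 and 146 CPM at every age, while in WKY rats they were 54.9 and 48.6 CPM in the library classes of 8 wk and then, from 10 to 24 wk, 39.4, 61.1, 73.9 and 76.2 CPM. The WKY medians thus spanned a wider range over age than the SHR medians. With the number that ends the library names as a term, the gene passed as well.

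The other gene, LOC103692716, exceeded its mean at the other ages by 12.96 ± 2.43 (adjusted p = 0.0359), and the number in the library name moved with it. All 9 libraries of 10 wk end in 2, as do 3 WKY and 2 SHR libraries of other ages. In WKY rats the gene was at 0 in all number-2 libraries, the 4 of 10 wk and the 3 of 8 wk, and at 0 to 678 CPM in number-1 libraries, where 1 library of 12 wk was at 0. In SHRs it was at 173 to 415 CPM at 10 wk and at 134 and 367 CPM in the other number-2 libraries, against 476 to 855 CPM in number-1 libraries. A fit with the number as a term gave a difference of -3.03 ± 0.80 between numbers (adjusted p = 0.00855). In that fit 2204 of the 13411 tested genes differed with the number at an adjusted p under 0.05, so it was not a matter of this gene alone. The number was mixed with age in each comparison of 10 wk with the other ages, and at 8 wk only WKY libraries carried the 2. The age difference passed with that term as well, with an adjusted p of at most 0.0379 over the 5 alternatives that kept all rats of 10 wk, but every library of 10 wk carries the number 2, so the term rests on the other ages. The age difference was also lost in 7 of 9 fits without 1 rat, with an adjusted p of up to 0.267 without WKY rat 2.

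**Figure D5:**
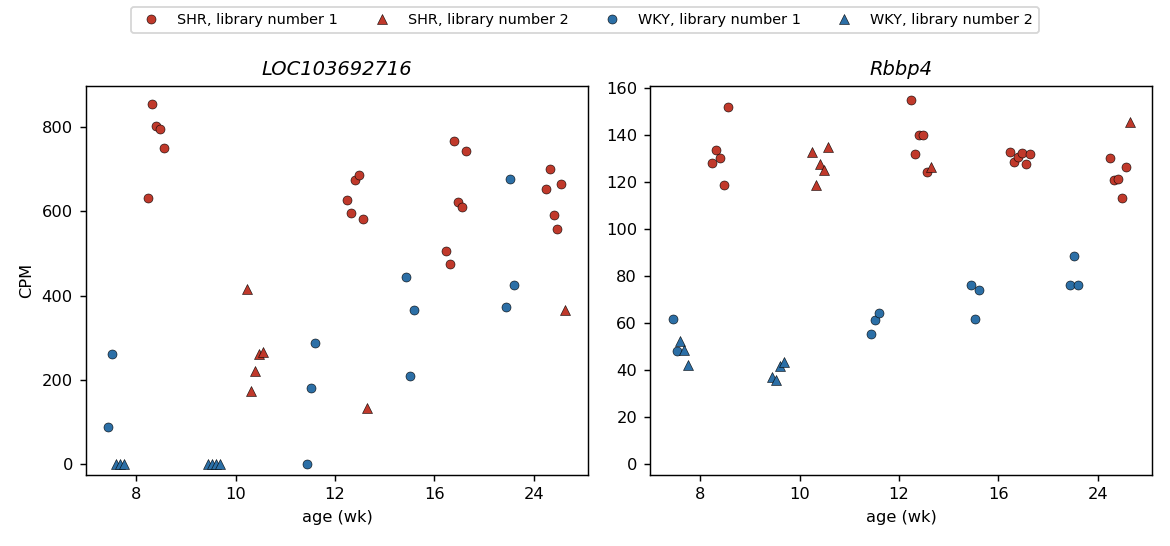
CPM of LOC103692716 (left) and Rbbp4 (right) in each of the 46 RVLM libraries by age in wk, with SHRs in red, WKY rats in blue, and libraries whose name ends in 1 as circles and in 2 as triangles. LOC103692716 is at 0 in all WKY triangles and lower in SHR triangles than in SHR circles, whereas Rbbp4 stays at 113 to 155 CPM in SHRs and is lowest in WKY rats at 10 wk.

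The RVLM was then compared with the other regions of the same rats. Of the 155 called genes, 149 were tested in the NTS, where 103 were called with the same sign (of all genes tested there, 1.25% were called), and 149 in the CVLM, where 113 were (1.18%), and 94 (60.6%) were called in all 3 regions. When the strain effects of the regions were tested against each other, over 14043 genes in 1 fit with the rat as a block, 34 genes (0.242%) had a higher and 25 (0.178%) a lower effect in RVLM than NTS by an adjusted p under 0.05. This count depended on the model, with 13 genes without the block and 14 in the 27 libraries of 10 wk alone, and there 5 to 30 when 1 rat was left out. The differences are signed, so a gene can be counted for a strain effect that lay mainly in the NTS. Per1 was such a gene, with log2 fold changes of -0.36 in the RVLM and 2.28 in the NTS. Cbs instead had a larger effect in the RVLM than in the NTS (1.71 and 0.23). Against the CVLM 2 genes passed (0.0142%), both lower in the RVLM, and none in the 27 libraries alone. For 2 CVLM libraries, 1 of each strain, taken here as 8 wk from their titles, another label gives 10 wk, and without them the same 2 genes passed.

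Cbs, cystathionine beta-synthase of the transsulfuration pathway, had the lowest p against the NTS. In the RVLM it was at 33.5, 33.2, 30.8, 28.1 and 31.8 CPM in SHRs and at 9.14, 9.45, 11.1 and 8.89 CPM in WKY rats (log2 fold change 1.71 ± 0.20), whereas in the NTS the log2 fold change was 0.23 (difference 1.52 ± 0.20, adjusted p = 1.39e-06). The strain difference in Cbs was therefore larger in the RVLM than in the NTS. It was not confined to the RVLM, since Cbs was also called in the CVLM. In the RVLM, Cbs was called with the same sign at all 5 ages. Ifi44 had log2 fold changes of 0.92 in the RVLM and -0.47 in the NTS (difference 1.48 ± 0.24, adjusted p = 0.000169). Taf12, a subunit of the general transcription factor TFIID, had 0.68 and -0.07 (difference 0.81 ± 0.14, adjusted p = 0.000626), and Pamr1 had 0.76 and -0.30 (1.11 ± 0.19, adjusted p = 0.000592). Terf2ip, which encodes the telomere protein Rap1, had its larger strain effect in the NTS, with log2 fold changes of -0.12 in the RVLM and -0.92 in the NTS (0.84 ± 0.12, adjusted p = 1.96e-06).

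In the other direction, Cfap206 was lower in SHRs in both regions, by a log2 fold change of -6.04 in the RVLM and -3.02 in the NTS (difference -3.01 ± 0.53, adjusted p = 0.000632), and AABR07000733.1 behaved likewise (-4.88 and -2.61). Wbp2, a coactivator that binds WW domains, fell in the RVLM by 1.32 ± 0.21 on the log2 scale with a log2 fold change of 0.03 in the NTS (difference -1.25 ± 0.28, adjusted p = 0.0243). For Hbs1l (-0.58 and 0.55) and the anion exchanger Slc4a2 (-0.28 and 1.08), neither of which passed in the RVLM alone, WKY rats 2 or 3 held the highest RVLM values. Of the peptide genes, Adcyap1, the gene of PACAP, had log2 fold changes of 0.94 in the RVLM and -0.55 in the NTS (difference 1.51 ± 0.34, adjusted p = 0.0259). It was chosen for mention after its values were seen.

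Against the CVLM, the elastase gene Cela1 had a log2 fold change of -5.36 in the RVLM and -1.56 in the CVLM (difference -3.85 ± 0.79, adjusted p = 0.0406). In the RVLM of SHRs it was near the floor, at 0.279 CPM in SHR rat 4 and at most 0.0705 CPM in the others. Its RVLM log2 fold change ran from -6.86 to -5.05 when 1 rat was left out, so the size of the difference is uncertain. The other gene, the class II gene RT1-DOb, was at 1.03 to 2.87 CPM in the CVLM of SHRs and 0 to 0.144 CPM in that of WKY rats. In the RVLM it was at 0 to 0.289 CPM in both strains and below the filter, so its difference between regions is not a measured effect in the RVLM. For the catecholamine enzymes, the strain effect in the RVLM exceeded that in the NTS by 1.69 ± 0.51 for Th (adjusted p = 0.0902), 1.93 ± 0.62 for Dbh (adjusted p = 0.115) and 2.36 ± 0.93 for Pnmt (adjusted p = 0.213), none of which passed.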

How the data were processed

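The table deposited by the authors holds RSEM expected counts per gene for each library, made with default settings of RSEM 1.3.1 and STAR 2.6.1 on the rat build rn6. The methods name ComBat_seq, and whether it was applied to this table is not stated (4.88% of the RVLM values are not whole). Here the expected counts were rounded, and genes reaching a regularized log value of 3.5 in any of the 46 RVLM libraries were kept. edgeR 4.0.16 (R 4.3.3) fitted all 46 libraries with 1 term per strain and age, by the quasi-likelihood test with Benjamini-Hochberg adjustment over 13411 genes, and regions were compared in a fit of all libraries of the 3 regions with the rat as a block. DESeq2 1.42.0 and limma 3.58.1 served as alternatives. The scripts were tested on simulated data. P-values measure the spread between rats, but in the region fit with the rat as a block they measure the spread that remains within rats. In the fit of all RVLM libraries, the spread also includes differences that go with the library number, which was mixed within some groups of other ages. Intervals cover counting error only. Named genes were the 10 largest rises and falls with a mean of at least 50 counts, the 2 largest each without a symbol, list members that passed, all catecholamine genes, genes that passed an age or region test (at most 5 each), and genes the study names. Calcrl, Gal, Slc17a6, Hbb, Ngb, Tap1, Psmb9, Kcne2, Neurod6, Adcyap1, LOC100910934, AABR07011698.1 and the genes of the closing observations were added after their values were seen. Values of some list members and of 1 neighbouring pair are not reported here. The comparison and the lists were chosen with earlier results of these data known.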

Additional observations from a re-analysis of the deposited data

Results flagged for a closer look

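Among 178 combinations of 89 named genes with a strain, 15 held a rat whose gap to the nearest other rat exceeded Dixon's 95% critical value for its group size, and chance alone gives about 1 in 20 such groups. In WKY rat 4, Trh was at 7.53 CPM where the other WKY rats reached 0.347, the Cfb entry that differed was at 0.753 CPM where the others were at 0, and Ifit1 was at 0.137 CPM, which is 2 counts. WKY rat 3 had the highest Ptprn2 of its group (29.7 CPM) and Dbh (6.02 CPM) and the lowest Mobp (467 CPM). WKY rat 2 had the lowest Pnmt (2.15 CPM) and Gch1 (1.88 CPM), and WKY rat 1 the highest AABR07000733.1 (7.99 CPM). In SHR rat 4, Dbh was at 25.7 CPM, RT1-Db1 at 4.53 CPM and Cela1 at 0.279 CPM, each above the other SHRs. SHR rat 2 was highest for Tmem106c (10.4 CPM) and Trh (3.12 CPM), and SHR rat 3 for Pkp1 (12.6 CPM).

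The strain effect at 10 wk differed from its mean at the other ages for LOC103692716, by 13 on the log2 scale, and for Rbbp4, by 0.665. Between the RVLM and the NTS it differed by 1.52 for Cbs, 1.48 for Ifi44, 1.11 for Pamr1, 0.837 for Terf2ip and 0.808 for Taf12. The signed effect was higher in the RVLM for these genes. It was lower in the RVLM by -3.01 for Cfap206, -2.25 for AABR07000733.1, -1.25 for Wbp2, -1.17 for Slc4a2 and -1 for Hbs1l. Of these genes, Terf2ip and Slc4a2 had their larger strain effect in the NTS. Between the RVLM and the CVLM the difference was -3.85 for Cela1, which was near the floor in the RVLM of SHRs. The fitted value of -6.94 for RT1-DOb rests on RVLM levels near 0 in both strains and is no measured RVLM effect. The reasons for these differences were not tested.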

How the results depend on the processing

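The 155 calls numbered 183 with DESeq2 (all 155 among them), 165 with limma voom (153 shared), 156 with DESeq2's size factors in edgeR, 169 with no filter, 170 with filterByExpr and, in the 9 libraries of 10 wk alone, 71 higher and 67 lower (130 shared). Above an absolute log2 fold change of 2 there were 66, of which 39 were higher and 27 lower. When each rat was left out in turn there were 137 to 149 calls, 70 to 77 higher and 67 to 74 lower, and 229 to 288 genes at an adjusted p under 0.05 in place of 309. The labels number the rats of each strain. Same-numbered rats correlated at -0.0203, 0.304, 0.155 and -0.106 in their deviations, and other pairs at -0.307 to 0.267. With so few pairs, these values cannot settle whether the numbers pair the samples. A fit with the replicate block gave 52 higher and 53 lower calls, and Slc18a2 passed in it (adjusted p = 0.00712). The count of 2 genes whose strain effect differed at 10 wk was 4 with DESeq2, and 1 to 2 without 1 rat. Of the region differences from the NTS, 59 in the reported fit, 13 were found without the rat as a block and 14 in the 27 libraries of 10 wk alone, 11 of them shared with the 59, and leaving out 1 rat there gave 5 to 30. For the CVLM, the 2 genes became 1 without the block, 0 in the 27 libraries alone, and 0 to 1 without 1 rat. Other settings were chosen after seeing the data. With the library number as a term there were 159 calls (all 155 among them) and 336 genes at an adjusted p under 0.05. Without the number-2 libraries of other ages there were 163 calls, 382 genes at an adjusted p under 0.05 and 4 age differences. Of 89 named genes, 73 kept their side of the threshold in every alternative run, and 44 of the 53 past an adjusted p of 0.05 stayed past it without each rat in turn. Of 1152 counts of list members under the alternatives, 62 moved by over 1.5 times, among them MHC genes that fell, 2 in place of 1 with DESeq2, limma voom and no filter. Small differences in low genes are limited by depth and by 4 WKY rats, and whether animals of a strain were littermates is not given in the sources used here.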

Other observations

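In the RefSeq gene order (GRCr8), 116 of the called genes were placed among 11990 tested genes, and 10 of them formed 5 pairs of direct neighbours. Among these pairs, Exo1, an exonuclease of DNA repair, and Pld5 were both lower in SHRs. Tmlhe, an enzyme of carnitine synthesis, and its neighbour Clic2 were both higher, as were RT1-Db1 and Tap2, while RT1-A2 and RT1-A1 went in opposite directions.

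The Y-linked gene Ddx3y was called in these female rats, at 0.841 to 2.33 CPM in SHRs and 0.0639 to 0.32 CPM in WKY rats (log2 fold change 2.94, adjusted p = 0.00317). The Y-linked genes Kdm5d and Eif2s3y were at 0 in all 9 libraries, and the X-linked relative Ddx3x was at 279 to 304 CPM in SHRs and 269 to 291 CPM in WKY rats. Ddx3y was chosen after its values were seen, and reads of Ddx3x assigned to it were not tested.

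Some called genes rested on few counts in 1 strain. Mettl24 had 2 counts over the SHRs and 215 over the WKY rats, 131-fold lower in SHRs with a 95% interval of 35.8 to 1090 that covers counting error only. RGD1309362 had 183 and 1, 150-fold higher with an interval of 26.6 to 5970.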
